A study of Rattus norvegicus with 12 samples.

Results

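The genes described here are those whose level under nintedanib lay outside the range of all other animals in a rat model of bleomycin lung fibrosis. Counts were scaled to CPM (a gene's count divided by its library's total count and multiplied by 1000000). An identifier was a member when its mean was at least 2 CPM in 1 of the 3 groups and all 4 nintedanib animals lay above the highest, or below the lowest, of the 8 other animals. Its nintedanib mean also had to be at least 25% above the larger, or at least 20% below the smaller, of both other group means. Of 32623 identifiers, 12784 met the level limit and 163 were members, 59 above both groups (0.462% of those at the level limit) and 104 below both (0.814%). The same values chose the members, so the gap between nintedanib and the other groups is given below as a description, without a test.

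Lung RNA was read by QuantSeq FWD, which sequences 1 stretch near the 3′ end of each polyadenylated transcript, in right lung homogenates of 12 male Sprague Dawley rats, 4 in each group. SAL animals had saline instilled into the trachea on day 0 and day 4 and oral vehicle, methylcellulose, daily from day 7. BLM animals had bleomycin at 1 U/kg on the same days and the same vehicle, and NINT animals had the same bleomycin and nintedanib at 100 mg/kg by mouth daily from day 7 for 3 weeks. All were ended on day 28, and no group had nintedanib without bleomycin, so an effect of the drug on its own cannot be told apart from an effect that needs the injured lung.

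Bleomycin breaks DNA strands, and in the rodent airway it injures the alveolar epithelium, after which inflammation and scarring follow. Nintedanib blocks receptor tyrosine kinases for vascular endothelial, platelet-derived and fibroblast growth factors and is used in pulmonary fibrosis. Genes that moved part of the way back to the saline level are not among those described here, since NINT lay outside both groups.

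The deposited table gives Ensembl gene identifiers without names, and 0 of the 32623 matched the reference table of names used here. Gene functions, cell type markers of the lung and pathway lists were therefore not read, and only the 2 members with the largest ratio in each direction are given by identifier. In a homogenate, fewer cells of a type and less RNA per cell cannot be told apart. Library totals ran from 16572004 in SAL replicate 1 to 21719946 in BLM replicate 3, and NINT totals ran from 17697037 to 21343622.

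The same rule was applied with each of the other groups as the outside group. SAL lay outside both bleomycin groups for 2106 identifiers (16.5% of those at the level limit), 1678 above (13.1%) and 428 below (3.35%). BLM lay outside SAL and NINT for 786 (6.15%), 443 above (3.47%) and 343 below (2.68%). NINT, with 163 (1.28%), had the fewest such genes of the 3 groups. The 3 counts are not alike by design, since only SAL had no bleomycin. Genes with NINT between BLM and SAL cannot count for NINT, so its count does not measure the size of the drug's effect. With DESeq2 size factors in place of plain totals, SAL lay outside for 1326 above and 595 below, and BLM for 391 above and 415 below.

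**Figure D1:**
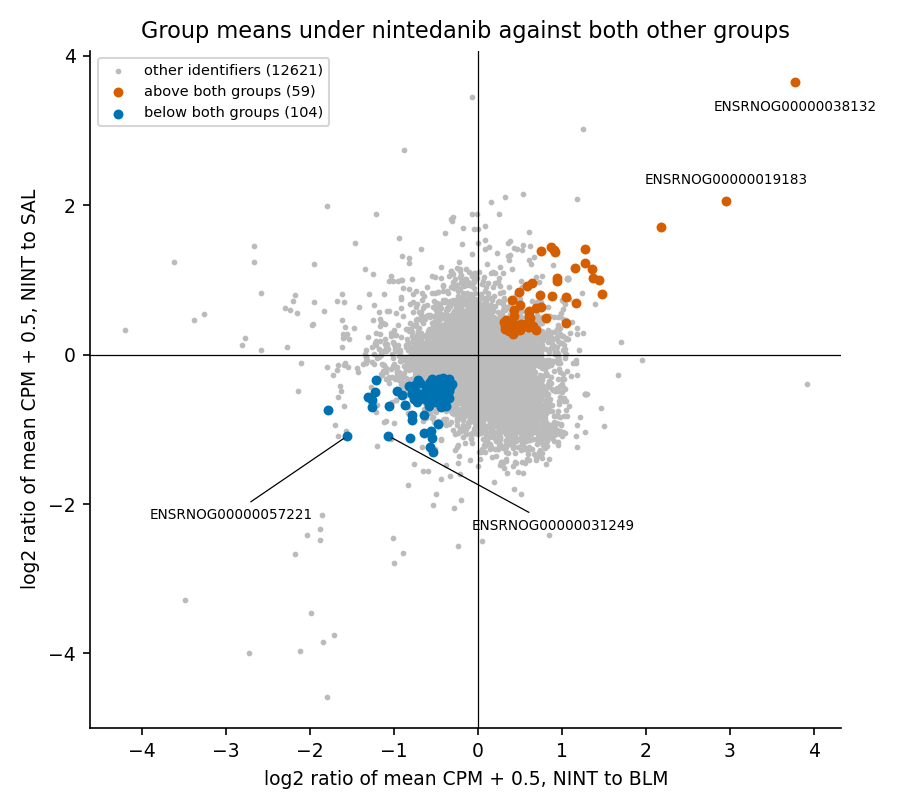
Each point is 1 of the 12784 identifiers at the level limit, with the log2 ratio of mean CPM + 0.5 for NINT to BLM on the x axis and for NINT to SAL on the y axis. The 59 members above both groups lie upper right and the 104 below lie lower left; only a few members stand clear of the grey cloud, because the rule asks for separate animals more than for a large ratio.

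Above both groups, ENSRNOG00000038132 had the largest ratio. Its level was 33.4, 19.3, 39.7 and 26.8 CPM in NINT replicates 1 to 4. It was 0.664, 2.74, 0.964 and 3.23 CPM in SAL replicates 1 to 4 and 2.31, 2.27, 1.89 and 0.344 CPM in BLM replicates 1 to 4. The groups were far apart: the lowest NINT animal stood 5.97 times above the highest other animal, SAL replicate 4, while SAL and BLM overlapped in part. The mean was 29.8 ± 8.77 CPM in NINT, 1.90 ± 1.27 in SAL and 1.70 ± 0.927 in BLM (SD, n = 4 each), 15.7 times the nearer group. Counts behind the low values were 7 to 60 reads a library in SAL and BLM, and 411 to 826 in NINT.

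ENSRNOG00000019183 came second. It stood at 25.5, 40.7, 14.6 and 20.2 CPM in NINT replicates 1 to 4, against 6.58, 6.19, 4.14 and 5.76 CPM in SAL and 2.21, 0.898, 4.28 and 3.88 CPM in BLM. The lowest NINT animal, replicate 3, was 2.21 times the highest other animal, SAL replicate 1. The mean was 25.2 ± 11.2 CPM in NINT, 5.67 ± 1.07 in SAL and 2.82 ± 1.56 in BLM (SD, n = 4 each). Here BLM leaned to the other side of SAL from NINT: the log2 fold change of BLM against SAL was -0.96 (SE 0.40), which did not pass the test (edgeR adjusted p = 0.0702). This gene and ENSRNOG00000038132 did not share an order among the NINT animals, since replicate 2 was the highest for the one and the lowest for the other.

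Among members below both groups, the 2 largest ratios were smaller in size than those above. ENSRNOG00000031249 stood at 2.47, 3.33, 4.61 and 3.22 CPM in NINT replicates 1 to 4, against 5.91, 9.04, 9.98 and 6.24 CPM in SAL and 6.94, 7.61, 9.30 and 6.93 CPM in BLM. The highest NINT animal, replicate 3, was 0.780 times the lowest other animal, SAL replicate 1. The mean was 3.41 ± 0.888 CPM in NINT, 7.79 ± 2.02 in SAL and 7.70 ± 1.12 in BLM (SD, n = 4 each), so that SAL and BLM were nearly level and NINT was at 0.443 of the nearer mean. BLM and SAL differed by 0.01 on the log2 scale, with an SE of 0.22 (edgeR adjusted p = 0.965).

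ENSRNOG00000057221 stood at 40.2, 22.0, 27.5 and 41.1 CPM in NINT replicates 1 to 4. It was at 70.4, 49.7, 77.5 and 83.0 CPM in SAL and at 78.1, 79.7, 169 and 61.9 CPM in BLM. BLM replicate 3 lay far above every other animal, and the lowest of the 8 was SAL replicate 2. The mean was 32.7 ± 9.46 CPM in NINT, 70.1 ± 14.6 in SAL and 97.1 ± 48.4 in BLM (SD, n = 4 each), 0.466 of the nearer mean. Between BLM and SAL the log2 difference was 0.50 with an SE of 0.30 and was not called (edgeR adjusted p = 0.187).

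**Figure D2:**
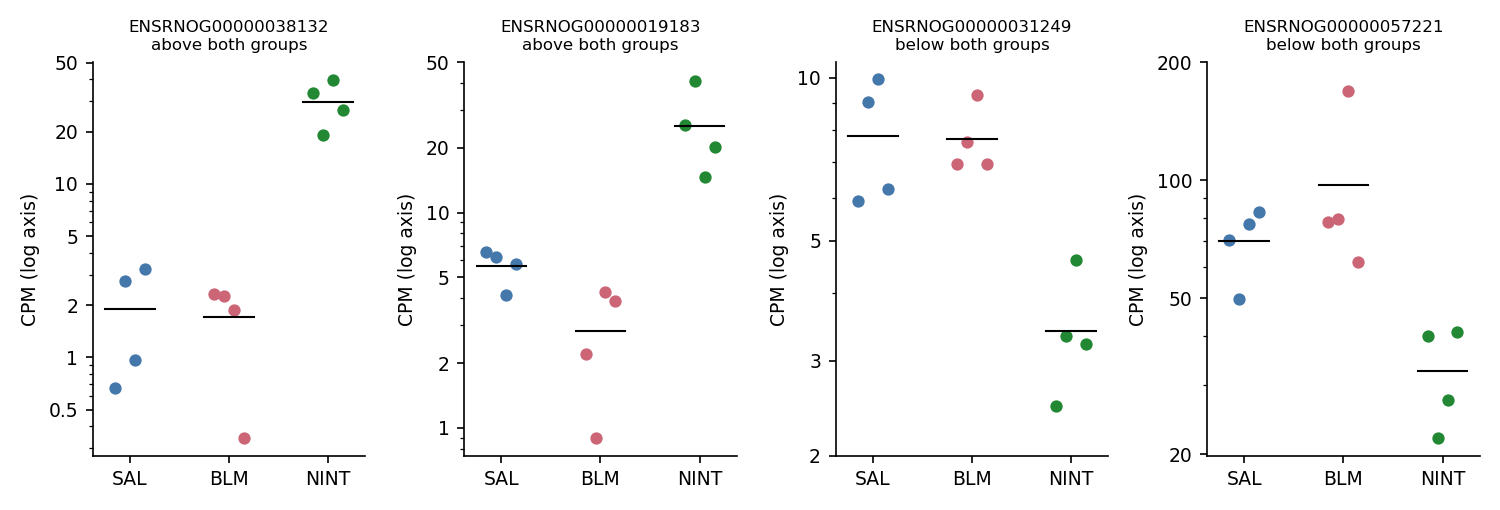
CPM on a log axis for the 4 identifiers with the largest ratios; points are animals, replicates 1 to 4 from left to right, and lines are group means. NINT is separate from SAL and BLM in each panel, by 5.97 times between the closest animals for ENSRNOG00000038132 and by far less in the others.

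Most members differed by far less than these. The median ratio of the NINT mean to the nearer group mean was 1.41 among the 59 above (lowest 1.251, quartiles 1.30 and 1.82) and 0.724 among the 104 below (quartiles 0.661 and 0.760, highest 0.799). A ratio of at least 1.5 was reached by 26 members above, a ratio of at least 2 by 10 and of at least 3 by 3. Below, 29 were at or under the inverse of 1.5 and 2 at or under the inverse of 2. Large departures were thus found mainly on the upper side, in a handful of genes.

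The closest animals were often nearly level. Between the lowest NINT animal and the highest other animal the median ratio was 1.07 among the members above, and between the highest NINT animal and the lowest other it was 0.918 among those below. The closest values were at least 1.1 times apart for 26 members above and 46 below, and overlapped for none by the rule. Just inside the ratio limit, the 2 nearest members above had ratios of 1.251 and 1.253, and the 2 nearest outside had 1.249 and 1.244; below, the values were 0.799 and 0.798 inside and 0.801 and 0.803 outside. A further 51 identifiers above and 164 below met the level limit with separate animals and fell short on the ratio.

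The members covered a wide span of abundance. The NINT mean ran from 2.03 to 5760 CPM among those above (median 28.5) and from 1.04 to 3100 CPM among those below (median 9.58). Together the 59 above took 1.38%, 1.52%, 1.38% and 1.33% of all counts in NINT replicates 1 to 4, against 0.953% to 1.12% in SAL and 0.700% to 0.907% in BLM. Much of this came from 1 member, at 5760 ± 406 CPM in NINT, 4301 ± 159 in SAL and 2776 ± 599 in BLM (SD, n = 4 each). Another large part came from a further member, at 3748 to 4886 CPM in NINT, 2933 to 3672 in SAL and 2226 to 3032 in BLM. The 104 below took 0.505% to 0.614% of counts in NINT, 0.728% to 0.792% in SAL and 0.732% to 0.944% in BLM. Here 1 member supplied much of the sum, at 3100 ± 389 CPM in NINT, 3891 ± 185 in SAL and 4528 ± 484 in BLM (SD, n = 4 each). The others together had a mean of 2575 CPM in NINT.

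Reads could be shared between some identifiers. A pair of members below had counts that differed by at most 2.35% in any library, over means of 2558 and 2609 counts. A member above had counts within 0.798% of those of an identifier that was no member and missed the ratio limit. Each such pair may hold the same reads under both identifiers, and the shared membership of the first pair is not evidence from 2 genes.

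The rule was also applied to 3 NINT animals, and the position of the animal left out was then described. The 8 SAL and BLM animals serve both the choice and the reading, and a gene with little spread among them passes both more easily, so a share above that of all identifiers follows in part from the choice and supports nothing by itself. Without NINT replicate 1, 95 identifiers were chosen as above, and NINT replicate 1 itself lay above all 8 other animals in 62 of them (65.3%), against 4.76% of all identifiers at the level limit. The share was 80.6% for NINT replicate 2 (background 9.06%), 77.6% for replicate 3 (5.79%) and 51.3% for replicate 4 (5.54%). Below, the left-out animal lay under all 8 others in 73.2%, 65.9%, 80.3% and 61.3% of the chosen identifiers for replicates 1 to 4, against 11.4%, 11.8%, 15.6% and 8.95%. The left-out animal lay on the opposite side of all 8 in at most 2 of the chosen identifiers. NINT replicate 4 had the lowest share of the 4 animals in both directions, and no test is attached.

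**Figure D3:**
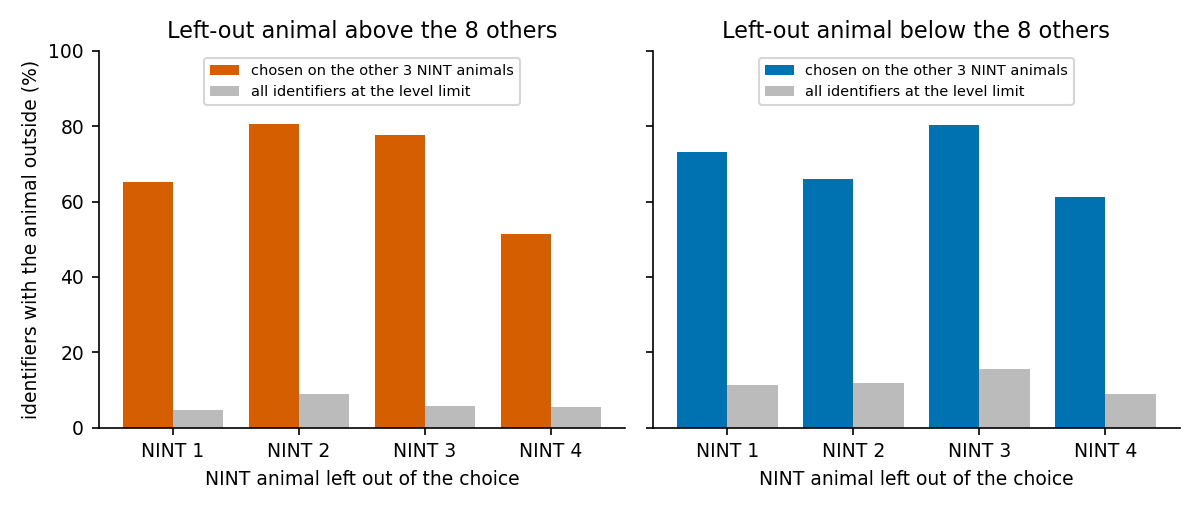
Bars give the share (%) of identifiers in which the left-out NINT animal lies outside all 8 SAL and BLM animals, for identifiers chosen on the other 3 NINT animals (coloured) and for all at the level limit (grey). Coloured bars run from 51.3% to 80.6% above and from 61.3% to 80.3% below, and grey bars stay at or under 15.6%. The same 8 animals served the choice and the reading, so the higher coloured bars support nothing by themselves.

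The split between above and below depended on how libraries were scaled. With library sizes scaled by TMM factors (edgeR's correction for unequal composition), 88 identifiers lay above and 82 below, and with DESeq2 size factors 102 and 67, so the majority of lower genes held only for plain CPM. All 59 members above met the rule under both other scalings, and 67 of the 104 below did. The TMM factor was 0.966 to 1.00 in NINT and 0.993 to 1.03 in SAL, and the median log2 ratio of NINT to SAL over identifiers at the level limit was -0.07 in plain CPM, -0.02 with TMM factors and 0.01 with DESeq2 size factors. Leaving out any 1 animal kept 39 members above and 78 below in all 12 repeats, and 39 and 61 met every one of these settings. Members stay separate whichever animal is left out, so only the ratio or level limit could fail in these repeats. The counts kept therefore do not support the separation itself.

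Single animals set the bar for many members. SAL replicate 1, the library with the smallest total, was the nearest other animal for 28 of the 59 above, and without it 117 identifiers lay above. It was the highest SAL animal for 61.0% of members above (27.6% of all identifiers at the level limit) and the lowest for 39.4% of members below (24.9%). In BLM, replicate 2 leaned the same way: it was the nearest other animal for 28 of the 104 below, and the lowest BLM animal for 49.0% of members below (28.0% of all). BLM replicate 3 leaned the other way, as the highest BLM animal for 70.2% of members below (36.4% of all). NINT replicate 4 was closest to the others, as the lowest NINT animal, for 25 members above (42.4%, against 19.7% of all identifiers at the level limit). As the highest NINT animal it was closest for 37 members below (35.6%, against 25.6% of all). Without NINT replicate 4, 113 identifiers lay above and 191 below. Without NINT replicate 1 there were 95 above, and without NINT replicate 2 there were 167 below. The same values chose the members, so these shares are a description without a test. The part of library depth in these patterns was not tested.

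Within NINT, members above peaked in different animals. Replicate 2 was the highest NINT animal for 28 of the 59 (47.5%, against 35.0% of all identifiers at the level limit) and replicate 3 for 18 (30.5%, against 16.3%). Of the 28, 20 had a lower mean in BLM than in SAL, as ENSRNOG00000019183 did, and of the 18, 6 did. So did 3 of the 5 that were highest in replicate 1 and 6 of the 8 highest in replicate 4. Over all 59 members above it was 35, and the share over all identifiers was not counted. These subsets were picked from the values, and they are described without a test, so the counts do not show separate kinds of members.

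**Figure D4:**
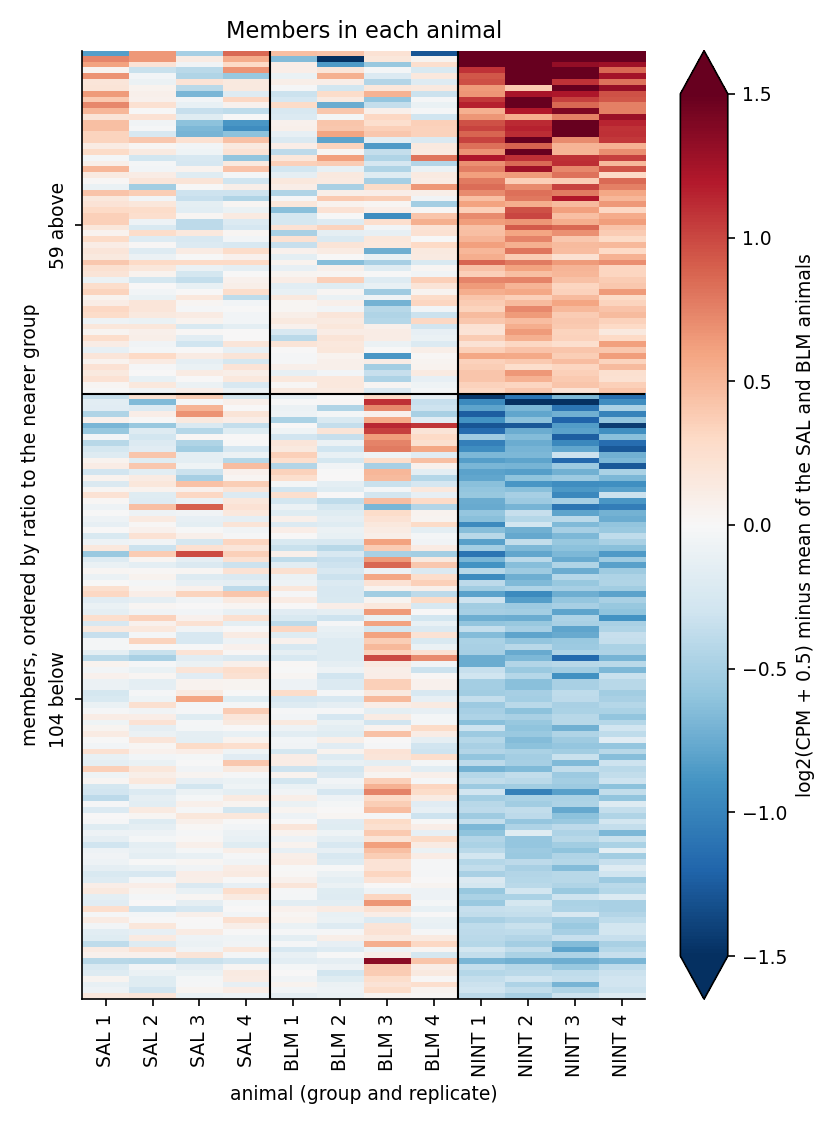
Rows are the 163 members, ordered by ratio within the 59 above and 104 below; columns are animals; colour is log2(CPM + 0.5) minus the mean of the 8 SAL and BLM animals, drawn up to 1.5 in size. NINT columns are separate in every row by the rule, BLM replicate 3 is high in many of the lower rows, and SAL replicate 1 is on the warm side in many of the upper rows.

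The contrast of BLM against SAL gives the change after bleomycin without the drug. NINT animals entered its filter, scaling and estimate of spread, and the SAL and BLM values took part in the choice of members. Most members showed no called change. In edgeR's quasi-likelihood test over 14956 genes, all 163 members were tested and 17 (10.4%) were called at an adjusted p under 0.05, where 40.8% of all genes were. Of the 59 above, 3 were higher and 3 lower in BLM, and of the 104 below, 8 were higher and 3 lower, against 18.3% of all genes higher and 22.4% lower. With library size alone 17 members were also called, 8 higher and 9 lower, against 11 and 6 with TMM factors. Over all genes that fit called 5895 of 14956, with 2297 higher and 3598 lower. The median absolute log2 fold change was 0.14 among the members and 0.34 among all genes tested. The rule used the highest and lowest of these 8 animals, which favours genes with little spread between SAL and BLM, so the low share is a description of what the rule selects.

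The position of NINT in the 17 called members is fixed by the rule, and only their change in BLM is described. Of the 59 above, 3 had fallen in BLM (log2 fold changes of -0.68 to -0.45), among them the abundant member at 5760 CPM (-0.60, SE 0.13), and 3 had risen (0.37 to 0.73). Of the 104 below, 8 had risen (0.40 to 1.12) and 3 had fallen (-0.84 to -0.46). In a fit of the SAL and BLM libraries alone 12 members were called, and of the 59 above none was then higher and 3 were lower. Over all genes that fit called 4717 of 14665, with 2168 higher and 2549 lower. In the fit of all 12 libraries the remaining 53 above and 93 below were not called in BLM against SAL, with log2 fold changes from -0.96 to 0.63 and from -0.65 to 0.56, which does not show that their levels were equal. The number of called members was 10 without BLM replicate 4, with 7 of the 104 below and 3 of the 59 above, all 3 lower in BLM. Calls over all genes were then 4892 of 15164, with 2270 higher and 2622 lower. Of the 59 above, 3 were also called without SAL replicate 2 (all lower) and without SAL replicate 4 (1 higher, 2 lower). Calls over all genes were 5409 of 15150 (2712 higher, 2697 lower) without SAL replicate 2. Without SAL replicate 4 they were 5074 of 15114 (2618 higher, 2456 lower). Without BLM replicate 2, 21 of the 104 below were called, beside 7092 of 15187 over all genes.

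**Figure D5:**
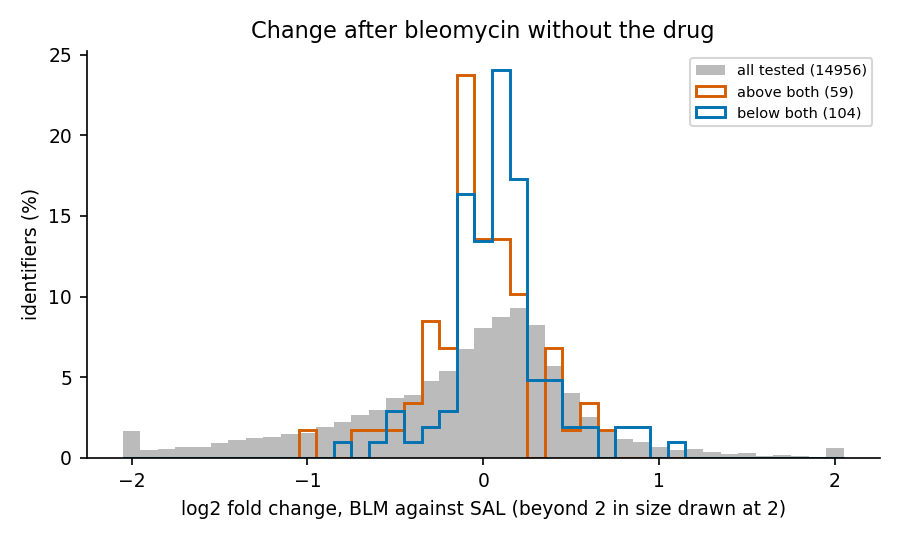
Histogram of the edgeR log2 fold change of BLM against SAL, as a percentage of identifiers, for all 14956 genes tested (grey), the 59 members above and the 104 members below. Both member outlines are narrower than the grey distribution, with medians of -0.04 above and 0.11 below.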

How the data were processed

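The members and lists were chosen with earlier results of these data known. The authors deposited raw counts of reads per Ensembl gene identifier, 1 column per animal; FastQC, STAR and HTSeq with genome build rn6 are listed per the submitters' processing notes, while versions, annotation and strand setting are not given in the sources used here. The table's 7 unnamed empty columns were not used. Columns were assigned to animals by their names. The labels name each library as 1 animal. Total counts were at least 16572004 per library; the part of counting error in the spread between animals was not estimated gene by gene.

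CPM were computed from column sums. Contrasts were tested in R 4.3.3 with edgeR 4.0.16 (filterByExpr, TMM, glmQLFit and glmQLFTest on all 12 libraries, 1 coefficient per group, no covariate; standard errors from the fold change and the F statistic), with Benjamini-Hochberg adjustment over 14956 genes and a threshold of 0.05. Alternatives were DESeq2 1.42.0, other size factors and filters, fits of only the groups compared, a replicate block and fits without each animal. The procedures were tested on simulated data with planted changes larger than the ratios of most members. For the rule, the simulated identifiers were also limited to a level that many members do not reach. These tests therefore do not show how the rule and fits behave for most members. Without gene names, the rule for named genes allowed 2 identifiers in each direction, those with the largest ratio of the NINT mean to the nearer other mean; the lists of pathways and cell type markers were not used.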

Additional observations from a re-analysis of the deposited data

Results flagged for a closer look

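In 24 sets of 4 values (the 4 identifiers given by name, the summed CPM of members above and below, total counts and detected identifiers, each within a group), 1 had an animal far from the rest of its group, where chance gives about 1.2. ENSRNOG00000057221, a member below both groups, was at 169 CPM in BLM replicate 3 and at 61.9 to 79.7 CPM in the other BLM animals. Without this animal the log2 ratio of the NINT mean to the nearer group mean was -1.10, the same as with it, because the nearer group was SAL.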

How the results depend on the processing

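Rules with SAL or BLM as the outside group, and their other scalings, were added after seeing the data. Every alternative listed in advance for the fits and for the rule was run. By the rule, DESeq2 size factors gave 102 identifiers above and 67 below. A ratio of at least 1.5 left 55 members (26 above, 29 below), and no limit on the ratio gave 378 (110 above, 268 below). Without each animal in turn the rule gave 168 to 304 members, 54 to 117 above and 106 to 191 below; fewer animals leave fewer values to be outside of. TMM scaling and other level limits moved these counts by less than 1.5 times, though TMM scaling turned the majority to above.

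The number of members called in BLM against SAL was 10 to 25 without each animal. Of those above 3 to 8 were called, and of those below 7 to 21, where calls over all genes were 4880 to 7092. In a fit of only the groups compared 3 above were called (none higher, 3 lower in BLM). Over all genes 4717 of 14665 were called in that fit (2168 higher, 2549 lower). With DESeq2, 23 of the 163 members and 6513 of 14925 genes were called. Calls over all genes in NINT against BLM were 1960 with DESeq2, 28 in a fit of only both groups compared and 17 to 2857 without each animal (872 in the fit of all 12 libraries). In NINT against SAL they were 2295 with DESeq2, 4248 in a fit of only both groups compared and 675 to 3344 without each animal (1391 in the fit of all 12 libraries). BLM against SAL stayed within 1.5 times of its 6098 calls in every alternative run. Why these counts moved was not tested.

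Replicate numbers are shared between groups, but nothing in the labels ties equal numbers together, and same-numbered animals did not deviate from their group means together (1 of 12 such pairs had a correlation over 0.1, range -0.166 to 0.203). With the replicate number as a block, 370 genes were called in NINT against BLM, and 13 of the 163 members in BLM against SAL. Over all genes, BLM against SAL then had 5664 of 14956 called. Members at the lowest levels rested on few reads, with means from 20.8 counts per NINT library among those below.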
